A study of Mus musculus with 24 samples.

Results

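Tmem119, Cx3cr1, Selplg, Siglech, Fcrls, Gpr34, Olfml3, Slc2a5 and Rnase4 are 9 genes for surface and secreted proteins that mark microglia, the resident macrophages of the brain, in their homeostatic (unchallenged) state. They were taken as a given list, drawn up with earlier results of these data known, and are 9 of the 35519 genes to which reads were assigned; all 9 passed the filter on low counts, as 9803 genes did. Each library was made by Smart-Seq2, an amplified full-length RNA method that keeps no strand and no molecular identifiers, from 1000 microglia sorted from whole brain of C57BL/6 mice as CD11b+, Fcrls+ and Ly6C- cells. The 24 libraries form 8 groups: NL4-/- females, WT females, NL4-/- males and WT males, each with 4 phagocytosis and 2 control libraries. NL4-/- mice lack neuroligin-4, a synaptic adhesion protein. The series' design text names 5 biological replicates for a phagocytosis group, of which 4 are analysed here, and does not say whether each came from its own animal, so p-values measure the spread between these libraries, which may be partly technical. Neither the age of the mice nor what the phagocytosis cells had taken up, and where, is stated in the labels.

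Microglia hold their homeostatic programme under TGF-beta signalling and the transcription factor PU.1, and these 9 genes are among those used as its markers in mice. The group holds receptors that read the brain environment (Cx3cr1 binds fractalkine from neurons, Gpr34 binds lysophosphatidylserine), adhesion and lectin molecules (Selplg, Siglech), a sugar transporter (Slc2a5) and secreted proteins (Olfml3, Rnase4). In mouse models of neurodegeneration, microglia that engulf debris are known for lower RNA of this programme.

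Total expected reads ran from 421107 to 1013797 per library. All 12 microglia markers checked had reads in every library, from 12 reads for Gpr34 and 76 for Sall1 upward; P2ry12 was at 205 CPM (counts scaled to the library total) or more. The Fcrls gate fixes the cells on Fcrls protein, so Fcrls RNA describes cells that had passed that gate. Satellite-like repeat genes took 1.5 to 15.98% of the reads of phagocytosis libraries and 3.95 to 22.7% of those of controls, with 3 controls above 20% (NL4-/- female 1, NL4-/- male 1 and WT male 2). The labels give no batch. In sorted bulk samples, fewer cells of a type and less RNA per cell cannot be told apart.

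The members were abundant genes. Levels between genes are compared on the deposited TPM (a level per length). In phagocytosis libraries Cx3cr1 stood highest at 1662 TPM ± 572 (SD, n = 16), then Selplg at 1369 ± 734, Tmem119 at 1263 ± 543, Fcrls at 1031 ± 273, Siglech at 659 ± 375, Olfml3 at 505 ± 181, Rnase4 at 295 ± 109, Gpr34 at 172 ± 105 and Slc2a5 at 119 ± 91.1 TPM. In controls Selplg stood first at 1841 TPM ± 710 (SD, n = 8), before Cx3cr1 at 1634 ± 597 and Tmem119 at 1491 ± 548, and the rest kept their order, Fcrls at 1122 ± 430, Siglech at 850 ± 336, Olfml3 at 578 ± 235, Rnase4 at 366 ± 123, Gpr34 at 247 ± 82.8 and Slc2a5 at 182 ± 82.7 TPM. Selplg and Cx3cr1 did not separate beyond their spread, with Selplg above in 5 of 16 phagocytosis libraries and 6 of 8 controls, whereas Cx3cr1 was above Tmem119 in 16 of 16 phagocytosis libraries and 7 of 8 controls. Gpr34 and Slc2a5 were close in controls, where Gpr34 was above in 5 of 8, while in phagocytosis libraries it was above in 15 of 16. Olfml3 was above Rnase4, and Rnase4 above Gpr34, in 16 of 16 phagocytosis libraries and 8 of 8 controls. The deposited effective length of Gpr34 averaged 585 bases, far below the 2088 and 1898 bases of its transcripts, which raises its level per length relative to the others.

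Across the 4 sex and genotype groups, the homeostatic genes were lower in phagocytosis libraries. In the mean comparison (16 against 8 libraries, edgeR's quasi-likelihood test, adjusted over 9803 genes), Rnase4, Fcrls, Olfml3, Gpr34 and Siglech fell and 4 did not pass, so 5 of 9 were called. Of all genes tested, 13.6% were called in either direction and 5.2% fell. All 9 had an unadjusted p under 0.05, as 27% of genes did. The members' median log2 fold change was -0.72, beside -0.0056 over all genes tested, and all 9 were negative. On the TPM scale used as an alternative Cx3cr1 was at 0.04, where the median of all genes was 0.33. None of the 9 separated all 16 phagocytosis libraries from all 8 controls, as 0.0714% of genes did in the lower direction. The 9 genes together took 1.16 to 2.82% of the reads of a phagocytosis library and 2.06 to 2.99% of those of a control. Without the 3 controls above 20% satellite-like reads, NL4-/- females, NL4-/- males and WT males each kept a single control. Fewer members and fewer genes were called in that fit. Its log2 fold changes were -0.84 for Siglech, -0.49 for Fcrls, -0.78 for Gpr34 and -0.68 for Rnase4. With all controls they were -0.80, -0.44, -1.21 and -0.72.

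**Figure D1:**
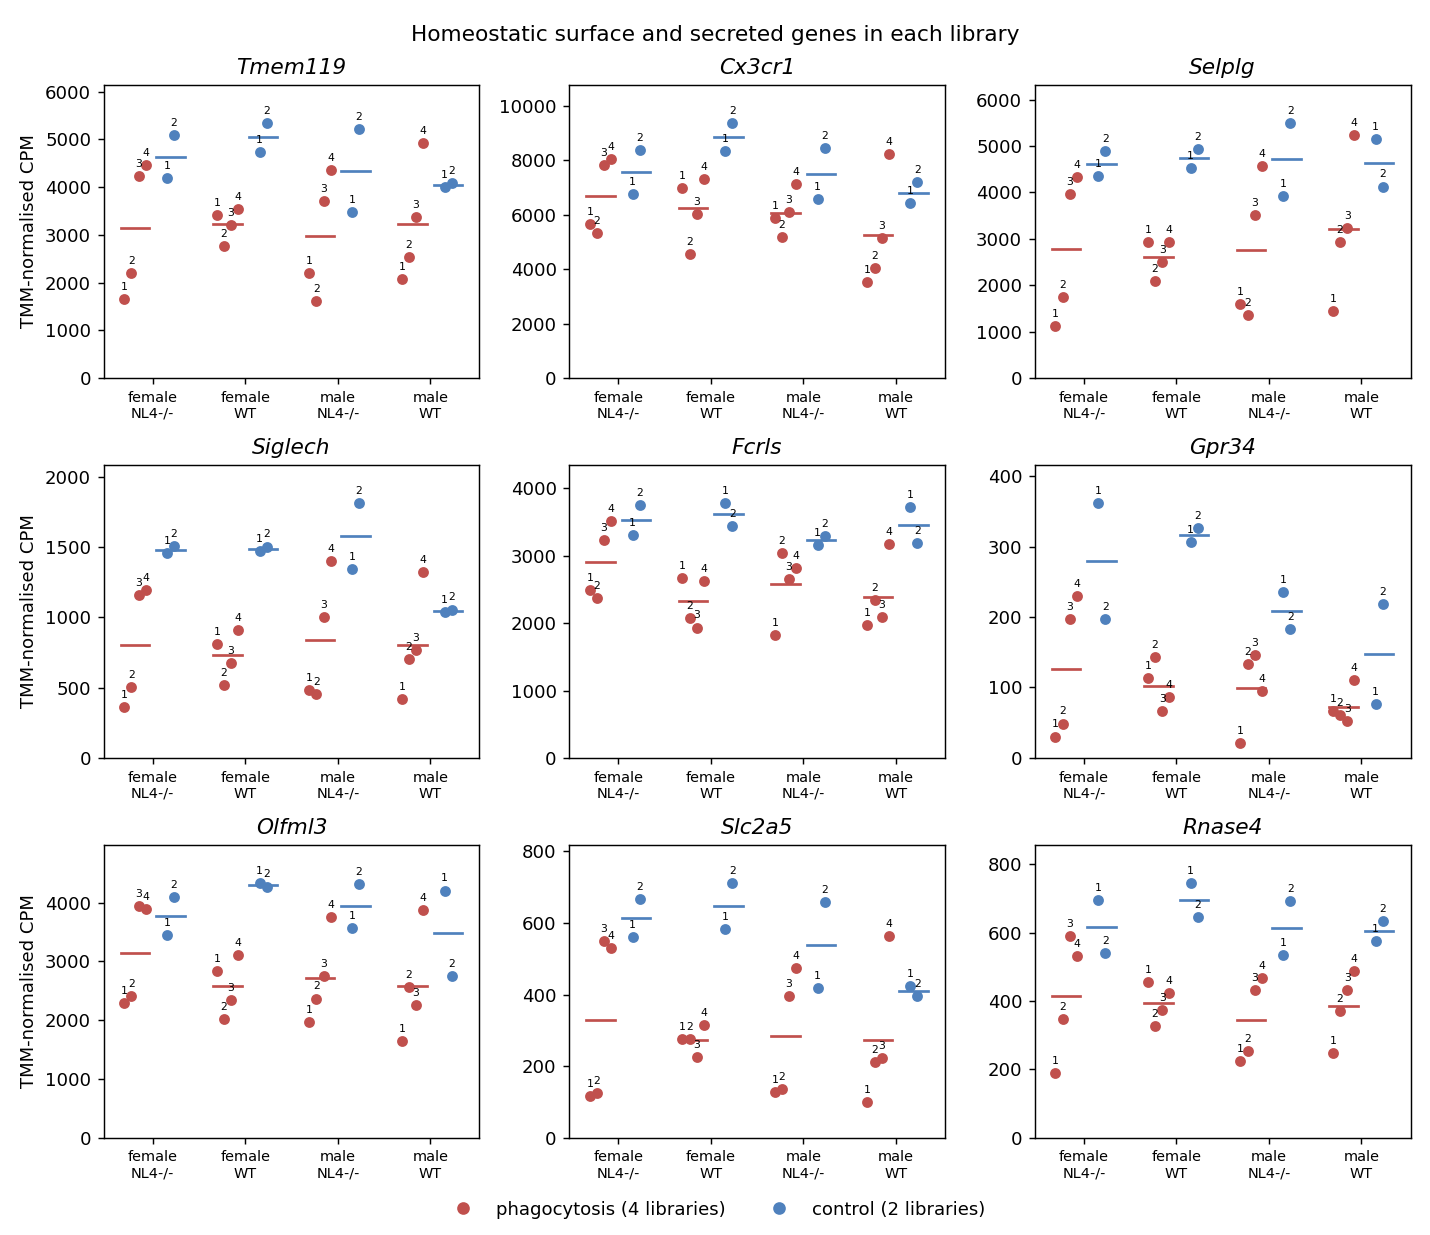
TMM-normalised CPM (vertical axis, linear, from 0) of each of the 9 genes in each library, by sex and genotype, with phagocytosis in red left of control in blue; digits are the library numbers in the labels and lines the group means. In WT females every phagocytosis point lies below both controls for all 9 genes. Libraries 3 and 4 of NL4-/- females and library 4 of both male groups often reach the control level.

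Among the receptors, Cx3cr1, the fractalkine receptor, ran from 3524 to 8254 TMM-normalised CPM (median 5965) in phagocytosis libraries and from 6425 to 9370 (median 7771) in controls. These ranges overlapped widely. Its mean was 6067 CPM ± 1426 (SD, n = 16) in phagocytosis libraries and 7692 ± 1084 (n = 8) in controls, a log2 fold change of -0.34 ± 0.13 (SE) that did not pass (edgeR adjusted p = 0.0830). It passed only when WT male phagocytosis 4 was left out, among the 24 libraries left out in turn (adjusted p = 0.00969). Gpr34, a lysophosphatidylserine receptor, was the least counted member. It ran from 21.7 to 230 CPM (median 90.7; 12 to 194 reads) in phagocytosis libraries and from 76.8 to 362 CPM (median 227; 36 to 266 reads) in controls. The lowest control, WT male 1, lay inside the phagocytosis range, and the highest phagocytosis libraries, NL4-/- female 3 and 4, lay at the control level. Gpr34 fell by 1.21 on the log2 scale (SE 0.34, edgeR adjusted p = 0.0250), the largest fall of the 9. The call was lost on leaving out any of 4 controls: WT female 2 (adjusted p = 0.0607), NL4-/- female 1 (0.0799), NL4-/- male 1 (0.0657) or WT male 2 (0.127). Gpr34 lies at chrX:13632089-13640858 (GRCm38) within Cask on the opposite strand, and 0 Cask exons overlap its exons; Cask itself averaged 16.9 CPM in phagocytosis libraries and 27.9 in controls.

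Of the adhesion and lectin molecules, Selplg, the P-selectin ligand PSGL-1, ran from 1122 to 5230 CPM (median 2929) in phagocytosis libraries and from 3929 to 5491 (median 4712) in controls. Most phagocytosis libraries were below the lowest control, but WT male 4 was above all but 1 control. Its log2 fold change was -0.72 ± 0.26 (edgeR adjusted p = 0.0792). Siglech, a receptor of the Siglec lectin family that signals through the adaptor Tyrobp, ran from 361 to 1403 CPM (median 737) in phagocytosis libraries and from 1037 to 1815 (median 1464) in controls. It fell by 0.80 on the log2 scale (SE 0.24, edgeR adjusted p = 0.0358). That call was the least steady of the 5: it was lost without any single one of the 8 controls, and without phagocytosis libraries NL4-/- female 2, WT female 2, WT male 2 or WT male 3, with adjusted p from 0.05004 to 0.0896. Selplg was called without NL4-/- male phagocytosis 4 (adjusted p = 0.0389) or WT male phagocytosis 4 (0.0426).

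Of the other membrane proteins, Tmem119, a single-pass protein used as a microglia marker, ran from 1624 to 4922 CPM (median 3289) in phagocytosis libraries and from 3473 to 5339 (median 4462) in controls. The ranges overlapped, and the log2 fold change of -0.52 ± 0.19 did not pass (edgeR adjusted p = 0.0744). It passed without NL4-/- female phagocytosis 4 (0.0431), NL4-/- male phagocytosis 4 (0.0370) or WT male phagocytosis 4 (0.0297). Fcrls, an Fc receptor-like molecule and the sorting antigen, ran from 1822 to 3521 CPM (median 2562) in phagocytosis libraries and from 3165 to 3783 (median 3379) in controls. Its controls were the tightest of the 9 genes, their highest value being 1.20 times their lowest, and only the top phagocytosis libraries reached them. Fcrls fell by 0.44 on the log2 scale (SE 0.11, edgeR adjusted p = 0.00856) and passed with each of the 24 libraries left out in turn. Slc2a5, the fructose transporter GLUT5, ran from 100.1 to 563 CPM (median 251) in phagocytosis libraries and from 397 to 712 (median 571) in controls. Its log2 fold change of -0.91 ± 0.34 was large but so was its spread (edgeR adjusted p = 0.0875), and it passed without WT male phagocytosis 4 (0.0283).

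Both secreted members fell. Olfml3, an olfactomedin-like glycoprotein, ran from 1651 to 3950 CPM (median 2486) in phagocytosis libraries and from 2751 to 4336 (median 4153) in controls. The low end of the controls was WT male 2. Olfml3 fell by 0.49 on the log2 scale (SE 0.14, edgeR adjusted p = 0.0203), a call lost without controls WT female 2 (0.0523), NL4-/- female 2 (0.0564), WT male 1 (0.0808) or NL4-/- male 2 (0.0631). Rnase4, a secreted ribonuclease, ran from 190 to 590 CPM (median 399) in phagocytosis libraries and from 534 to 746 (median 639) in controls. Only NL4-/- female phagocytosis 3, at 590 CPM, was above the lowest control. Rnase4 averaged 385 CPM ± 115 (SD, n = 16) in phagocytosis libraries and 633 ± 77.6 (n = 8) in controls, and fell by 0.72 on the log2 scale (SE 0.17, edgeR adjusted p = 0.00482). It passed with each of the 24 libraries left out in turn.

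**Figure D2:**
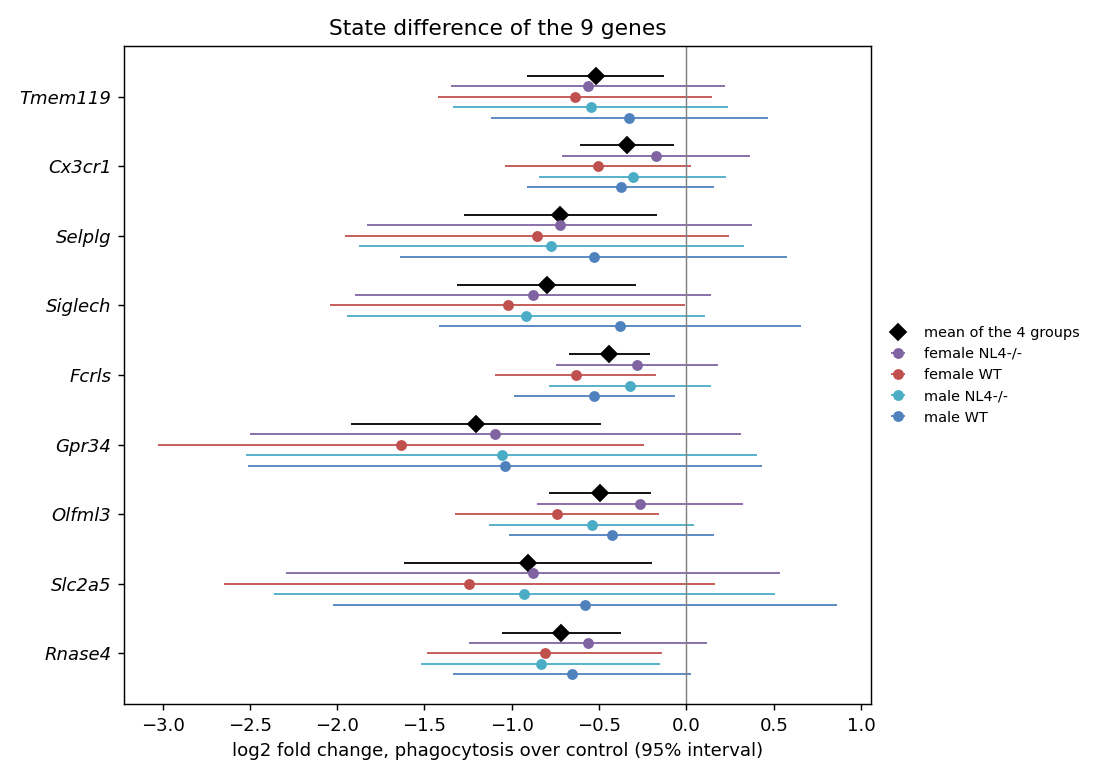
Log2 fold change, phagocytosis over control (horizontal axis), of each gene, with its 95% interval; the black diamond averages the 4 groups of sex and genotype, and the coloured points are the single groups, n = 4 against 2 libraries each. Every point lies below 0, and the single-group intervals are wide.

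Rnase4 shares its locus and its first exons with Ang, which encodes the ribonuclease angiogenin. It lies at chr14:51091077-51106151 (GRCm38, plus strand). Both Rnase4 transcripts of the annotation have a first exon that ends where an Ang first exon ends, at 51091253 for the upstream one and 51096473 for the other. RefSeq has its second Rnase4 start just after 51095999, where an Ang transcript begins. The upstream transcript took 67.7% of Rnase4 reads in phagocytosis libraries and 77.0% in controls, with 52.2 to 100% in single libraries, and the other transcript 32.3% in phagocytosis libraries and 23.0% in controls. Ang fell with Rnase4: it averaged 89.7 CPM ± 36.2 (SD, n = 16) in phagocytosis libraries and 146 ± 19.3 (n = 8) in controls, a log2 fold change of -0.69 ± 0.23 (edgeR adjusted p = 0.0498). With the reads of both genes summed the fall was 0.71 on the log2 scale (adjusted p = 0.00474); this sum was added after the values were seen. The division of shared first-exon reads between the genes and transcripts is the quantifier's estimate.

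RefSeq promoter windows (GRCm38.p6, the 250 bases before a start) were at hand for 6 of the 9 genes, in 7 windows; Tmem119, Selplg and Gpr34 had none. They are shown for Rnase4, whose 2 starts can be compared, and for Siglech, since both genes fell and all 3 windows held the same pair of short motifs. Capitals mark GGAAGT, the core that ETS factors such as PU.1 bind, and CAGACA, a SMAD motif (SMADs carry TGF-beta signals), on either strand (ACTTCC and TGTCTG on the other).
Rnase4, upstream start, chr14:51090827-51091076, plus strand: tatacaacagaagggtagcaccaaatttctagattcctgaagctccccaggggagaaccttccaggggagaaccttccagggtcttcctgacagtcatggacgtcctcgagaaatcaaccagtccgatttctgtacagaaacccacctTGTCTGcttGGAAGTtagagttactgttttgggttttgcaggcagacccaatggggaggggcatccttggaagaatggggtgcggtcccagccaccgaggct
Rnase4, second start, chr14:51095750-51095999, plus strand: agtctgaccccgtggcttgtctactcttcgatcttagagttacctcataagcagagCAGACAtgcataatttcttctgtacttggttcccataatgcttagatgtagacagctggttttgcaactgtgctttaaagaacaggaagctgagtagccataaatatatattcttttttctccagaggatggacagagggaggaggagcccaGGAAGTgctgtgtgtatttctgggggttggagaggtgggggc
Siglech, chr7:55767934-55768183, plus strand: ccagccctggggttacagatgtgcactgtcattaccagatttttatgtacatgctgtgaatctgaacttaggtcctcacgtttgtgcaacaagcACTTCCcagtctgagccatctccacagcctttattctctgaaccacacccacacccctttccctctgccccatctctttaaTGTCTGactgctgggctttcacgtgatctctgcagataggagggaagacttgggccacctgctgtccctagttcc
GGAAGT was in 4 of the 7 windows (Fcrls, Siglech and both of Rnase4), against 19.7% of 32851 promoters of the same length. CAGACA was in 5 of 7 (those 4 and Slc2a5), against 17.1%. The longer PU.1 motif GAGGAAGT, which contains the ETS core, was in 0 of 7 (2.44% of all), and a paired IRF motif in 0 of 7 (2.98%). TATAAA was in 1 of 7, that of Fcrls (12.4%). The windows of Cx3cr1 and Olfml3 held none of these letters. A match describes letters and not a bound site.

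The direction was the same in each sex and genotype, but no single group gave a call. All 36 within-group log2 fold changes were negative, from -1.63 (Gpr34, WT females) to -0.18 (Cx3cr1, NL4-/- females). By edgeR 0 of 36 passed; 7 had an unadjusted p under 0.05 (5 of them in WT females), and DESeq2 also called 0. Few genes of any kind passed in these comparisons of 4 against 2 libraries: 0.459% in NL4-/- females, 0.581% in WT females, 0.602% in NL4-/- males and 0.326% in WT males, and, at an unadjusted p under 0.05, 9.54% in NL4-/- females, 12.1% in WT females, 10.8% in NL4-/- males and 8.21% in WT males. In WT females all 9 genes had every phagocytosis library below both controls, against 12.6% of all genes. In NL4-/- females this held for Selplg, Siglech and Slc2a5 (3 of 9, against 11.2%). In NL4-/- males it held for Fcrls, Gpr34 and Rnase4 (3 of 9, against 11.6%), and in WT males for Fcrls and Rnase4 (2 of 9, against 8.22%). The groups were not shown to differ: the interaction tests of state with genotype and with sex called 0 of 9 members by edgeR, with 0 at an unadjusted p under 0.05 and 0 by DESeq2, and 0% of all genes (2.82% and 1.95% at an unadjusted p under 0.05).

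The spread of log2 CPM was wider over the 16 phagocytosis libraries than over the 8 controls for each of the 9 genes, with an SD of 0.29 in phagocytosis libraries against 0.11 in controls for Fcrls, and of 0.92 in phagocytosis libraries against 0.70 in controls for Gpr34. In WT females all 4 were low, with a median log2 difference of the 9 genes from their own controls of -0.60, -1.09, -0.90 and -0.69 in libraries 1 to 4. In NL4-/- females libraries 1 and 2 were low, at -1.68 and -1.07, and libraries 3 and 4 were near their controls, at -0.13 and -0.09. NL4-/- males had the same split, with -1.43 and -1.26 in libraries 1 and 2, and -0.41 and -0.14 in 3 and 4. In WT males the values were -1.04, -0.68, -0.51 and 0.19, so that library 4 lay below its controls for only 3 of 9 genes.

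Slc2a5 shows this split in both NL4-/- groups. It had 117, 124, 550 and 530 CPM in NL4-/- female phagocytosis libraries 1 to 4, against 560 and 666 CPM in their controls. NL4-/- male phagocytosis libraries had 127, 136, 395 and 474 CPM, against 417 and 658 in controls. WT male phagocytosis libraries had 100.1, 211, 222 and 563 CPM, against 423 and 397 in controls. WT female phagocytosis libraries had 276, 275, 227 and 316 CPM, against 582 and 712 in controls, with no such split. Siglech followed the same order, with 361, 502, 1162 and 1193 CPM in NL4-/- female phagocytosis libraries against 1456 and 1511 in controls. NL4-/- male phagocytosis libraries had 484, 456, 1003 and 1403 CPM of Siglech, against 1344 and 1815 in controls. Gpr34 did not follow it everywhere: NL4-/- male phagocytosis libraries had 21.7, 133, 146 and 94.8 CPM, against 235 and 182 in controls.

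**Figure D3:**
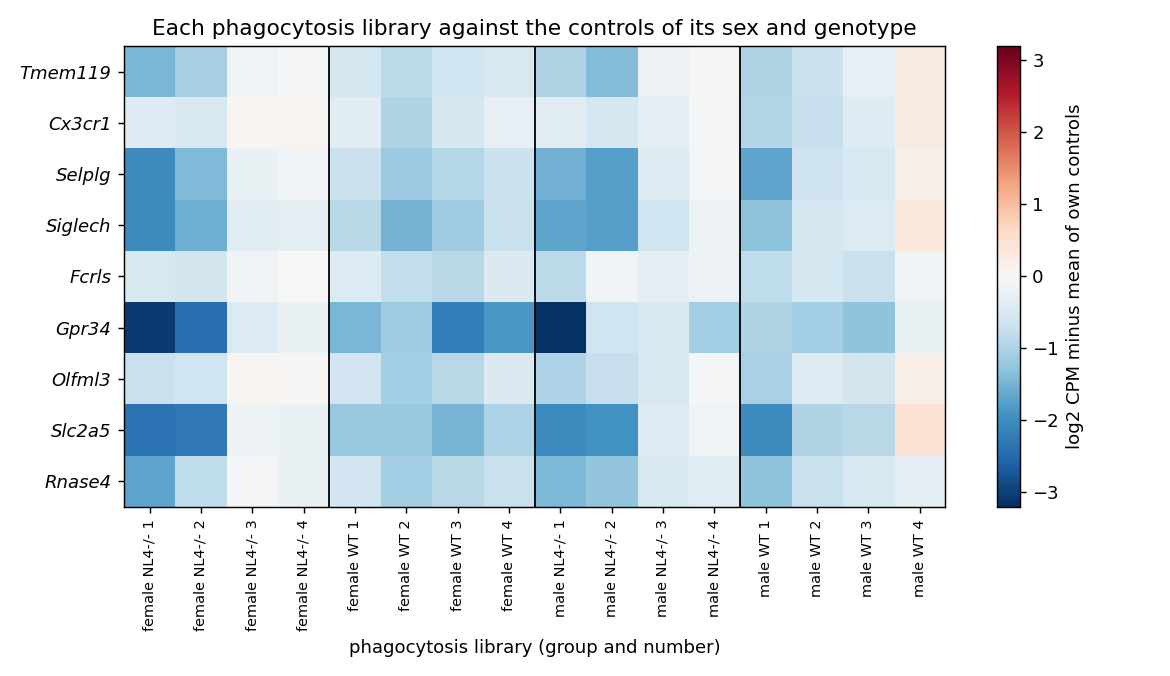
Difference in log2 CPM between each phagocytosis library (columns, by group and number) and the mean of the controls of its sex and genotype, for each gene (rows); blue is lower and red higher than those controls. Libraries 1 and 2 of both NL4-/- groups are dark across most genes, 3 and 4 pale, and WT male 4 is pale or slightly red, with 3 of 9 genes below its controls.

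Numbers 1 and 2 lay below numbers 3 and 4 by a median log2 difference over the 9 genes of -1.18 in NL4-/- females, -1.09 in NL4-/- males and -0.78 in WT males, with 9 of 9 genes below 0 in each, and of -0.12 in WT females, with 6 of 9. Over all genes tested these medians lay between -0.0091 and 0.022. The labels give the numbers no meaning beyond a name, so this is a description with no test. With numbers 3 and 4 alone, 3 of 9 members passed the mean comparison (Siglech, Gpr34 and Rnase4), as did 766 of 9803 genes. With numbers 1 and 2 alone, 9 of 9 members and 1775 of 9803 genes passed. Both fits divide the libraries where these same genes differ, so their counts restate the description and are no separate support. Markers of border-associated macrophages, the macrophages of the meninges and vessels, moved with the split in NL4-/- females, where the 14 markers summed to 2250 and 2240 CPM (scaled to the library total) in libraries 1 and 2, against 1533 and 1533 in 3 and 4. In NL4-/- males the sums were 2664, 1737, 1862 and 1872 CPM, and in WT males 2474, 1827, 2209 and 1639. Lymphocyte markers ran the other way, with sums of 175, 215, 411 and 387 CPM in NL4-/- female phagocytosis libraries 1 to 4, 213, 202, 342 and 406 in NL4-/- males and 242, 220, 230 and 433 in WT males. In NL4-/- females monocyte markers summed to 160, 128, 65.9 and 49.7 CPM, and neutrophil markers to 338, 381, 532 and 503. Neither followed the split in NL4-/- males, with 122, 102, 157 and 144 CPM for monocyte and 445, 289, 400 and 344 for neutrophil markers. In WT males monocyte markers summed to 194, 321, 106 and 54.3 CPM, and neutrophil markers, without the split, to 398, 631, 503 and 623. Each of 3 of these sums was mostly 1 gene. In phagocytosis libraries Ighm averaged 237 CPM, against a median lymphocyte sum of 248, and Csf3r 407, against a median neutrophil sum of 439. Stab1 averaged 1466 CPM, against a median border-associated macrophage sum of 1867. The sums therefore do not show how many cells of a type were present. The part of these markers in the result was not tested.

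The 9 genes varied together around their group means. Over 36 pairs, the correlation of log2 CPM deviations across 24 libraries had a median of 0.80, from 0.31 (Cx3cr1 with Gpr34) to 0.98 (Selplg with Siglech). Gpr34 and Fcrls followed the others least, with median r of 0.56 and 0.65. These deviations share library, depth and composition. Of 5260 other genes at this level of counts, those most like the mean of the 9 included Ppfia4 (r = 0.97), Entpd1, the ectonucleotidase CD39 (0.96), Vsir, an immune checkpoint molecule (0.96), the ADP receptors P2ry12 (0.96) and P2ry13 (0.95), Phyhd1 (0.95) and Lrrc3 (0.95); the median gene had r = 0.018. P2ry12 had 205, 472, 1246 and 1269 CPM in NL4-/- female phagocytosis libraries 1 to 4, against 1384 and 1362 CPM in controls. The genes that ran most opposite were Pgs1 (r = -0.88), 4932438A13Rik (-0.88), Mbd3 (-0.86) and Ms4a6d (-0.84). Without phagocytosis libraries 1 and 2 the r of those most like the mean lay between 0.81 and 0.94, while those of Pgs1 and 4932438A13Rik were -0.60, that of Mbd3 -0.73 and that of Ms4a6d -0.77.

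No difference between NL4-/- and WT was detected in the 9 genes. In 4 comparisons of NL4-/- with WT, within each sex and state, edgeR called 0 of 36, with 0 at an unadjusted p under 0.05 and 0 by DESeq2. The background was 0% of 9803 genes in each comparison, and at an unadjusted p under 0.05 it was 5.2% in female and 4.74% in male phagocytosis libraries, and 2.12% in female and 3.36% in male controls. Within phagocytosis the mean difference over both sexes (0% of genes called, 5.09% at an unadjusted p under 0.05) lay between -0.08 (Tmem119) and 0.41 (Gpr34) on the log2 scale. For Fcrls, the most precisely measured, it was 0.21, with a 95% interval from -0.06 to 0.49. For Gpr34 the interval ran from -0.47 to 1.28, which does not exclude a sizeable difference. Of the controls, Olfml3 was lower in both NL4-/- female libraries, at 3454 and 4100 CPM, than in both WT female libraries, at 4336 and 4273, and Siglech was higher in both NL4-/- male libraries, at 1344 and 1815 CPM, than in both WT male libraries, at 1037 and 1057. Such separation of 2 against 2 libraries was seen for 18.2% and 16.4% of all genes in those directions, so 1 of 9 was not more than the background.

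No sex difference passed either. EdgeR called 0 of 36 female over male differences, with 0 at an unadjusted p under 0.05 and 0 by DESeq2; the background was 0.0204% and 0.0102% of genes in WT and NL4-/- phagocytosis libraries, and 0% and 0.0102% in WT and NL4-/- controls. At an unadjusted p under 0.05 it was 7.55% and 2.31% in WT and NL4-/- phagocytosis libraries, and 3.39% and 1.86% in WT and NL4-/- controls. The mean over both genotypes within phagocytosis also called 0 of 9 (0.0408% of genes; 4.76% at an unadjusted p under 0.05, with 0 members). In WT controls 7 of 9 genes, all but Selplg and Fcrls, were higher in both female libraries than in both male ones, as 18.1% of all genes were. Cx3cr1 had 8337 and 9370 CPM in WT female controls, against 6425 and 7204 in WT male controls. Gpr34 had 307 and 327 CPM in WT female controls, against 76.8 and 218 in WT male controls, and its log2 difference of 1.08 had an interval from -0.59 to 2.75. One of these male libraries was WT male 2, with 22.7% satellite-like reads. In NL4-/- controls this held for 1 of 9, Fcrls (16% of all genes). No phagocytosis comparison separated any member by sex or genotype. Such separation of 4 against 4 libraries was seen for 0.908 to 1.79% of all genes in a given direction, so 0 of 9 was near the background. The interaction of genotype with sex called 0 of 9 by edgeR in phagocytosis libraries and in controls, with 0 at an unadjusted p under 0.05 and 0 by DESeq2 (0% of all genes; 4.76% and 2.44% at an unadjusted p under 0.05).

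**Figure D4:**
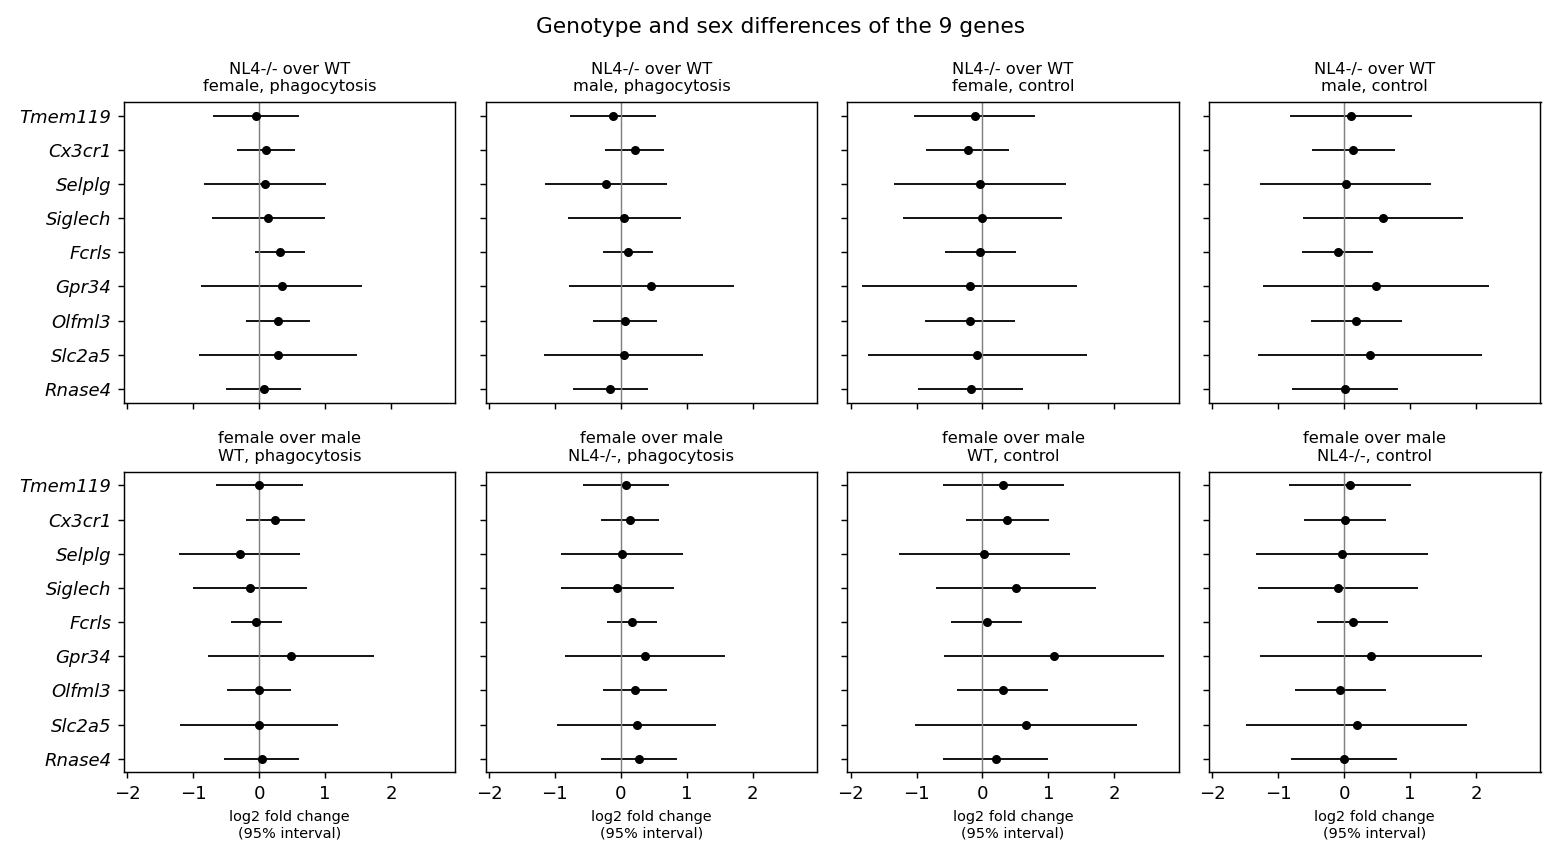
Log2 fold change (horizontal axis) with 95% interval of each of the 9 genes, NL4-/- over WT in the upper row and female over male in the lower row, for phagocytosis (left panels) and control libraries (right panels). All intervals include 0, and those of the 2 against 2 control comparisons are the widest.

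Of 63 other homeostatic microglia genes, 62 were tested. Of these 30 fell, 2 rose, and their median log2 fold change was -0.47, with 57 below 0. Of all genes tested, 5.2% fell and 8.39% rose, and the median was -0.0056. Fewer fell without the 3 controls above 20% satellite-like reads, where 3 of the groups kept a single control. With phagocytosis numbers 3 and 4 alone, 14 fell. Under both settings fewer of all genes were called too, as given above. Those with the smallest adjusted p that fell were the scaffold gene Tanc2 (log2 fold change -0.64 ± 0.10, edgeR adjusted p = 9.6e-05), the transcription factor Mef2a (-0.66 ± 0.12), Serinc3 (-0.66 ± 0.14), the TGF-beta receptor Tgfbr1 (-0.77 ± 0.17), the prostaglandin D synthase Hpgds (-0.53 ± 0.12), Sall1, a transcription factor of microglial identity (-0.52 ± 0.12), and the sialomucin Cd164 (-0.62 ± 0.15). Spi1, which encodes PU.1, rose by 0.74 ± 0.15 (adjusted p = 0.00117). The other that rose was the complement gene C1qc (0.91 ± 0.21, adjusted p = 0.00638), named after its value was seen because only 2 rose. Csf1r, the colony-stimulating factor receptor, fell by 0.58 on the log2 scale (SE 0.16, adjusted p = 0.0175). P2ry12 was at -0.81 ± 0.33 (adjusted p = 0.123) and the lipid receptor Trem2 at -0.37 ± 0.13 (0.0539), and neither passed.

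Of 17 partners of the members, 14 were tested, 2 fell and 1 rose. Of all genes tested, 5.2% fell and 8.39% rose, so counts this small are not read as a result about the partners. Ang fell, as given above. Adam10, a protease that sheds cell-surface proteins, fell by 0.47 on the log2 scale (SE 0.15, edgeR adjusted p = 0.0386). Rnh1, the ribonuclease inhibitor that binds Rnase4 and angiogenin, rose by 0.42 ± 0.14 (adjusted p = 0.0367). Tyrobp, the adaptor of Siglech, averaged 1400 CPM ± 197 (SD, n = 16) in phagocytosis libraries and 1394 ± 171 (n = 8) in controls, with a log2 fold change of 0.01 and an SE of 0.10 (adjusted p = 0.983), while its receptor fell; the difference between the changes of the 2 genes was not tested. The ligands Cx3cl1 (fractalkine) and Selp (P-selectin) were too low to test, with 0 to 6 and 0 to 1 reads in a library.

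Of the marker lists of other cell types, that of border-associated macrophages had the most called members. Border-associated macrophage markers summed to 1533 to 2664 CPM (median 1867, scaled to the library total) in phagocytosis libraries and 887 to 1797 (median 1061) in controls. Of these markers, 14 of 14 were higher on average, 8 of 9 tested rose, and none was at 0 in all libraries. Of all genes tested, 8.39% rose and 5.2% fell, shares that also stand beside the counts of the lists below. Their most abundant member, Stab1, averaged 1464 TMM-normalised CPM in phagocytosis libraries and 1035 in controls. The mannose receptor Mrc1 was low, at 9.52 CPM in phagocytosis libraries and 3.62 in controls. Also called and near 0 in controls were Pf4 (12.9 CPM in phagocytosis libraries, 0.704 in controls), Cbr2 (11.8 and 1.44) and Ms4a7 (11.2 and 1.42). Such genes can pass the filter on low counts through the phagocytosis libraries alone, so the filter can partly fix the count of 8 of 9. Monocyte markers summed to 49.7 to 321 CPM in phagocytosis libraries and 32.4 to 110 in controls, led by Fn1, and 1 of 8 tested rose. Neuron markers, led by Thy1, summed to 48.2 to 151 CPM in phagocytosis libraries and 29.8 to 73.5 in controls, and 1 of 3 tested rose. Oligodendrocyte markers, led by Cnp, summed to 173 to 371 CPM in phagocytosis libraries and 127 to 198 in controls, and 1 of 4 tested rose. Astrocyte markers summed to 78.5 to 166 CPM in phagocytosis libraries and 58.7 to 149 in controls, led by Slc1a3; of 3 tested, 2 rose and 1 fell. Endothelial markers, led by Slc2a1, reached 85.4 to 186 CPM in phagocytosis libraries and 50.6 to 197 in controls, with Cldn5 at 0 and 0 of 3 tested called by edgeR. Neutrophil markers summed to 289 to 631 CPM in phagocytosis libraries and 422 to 688 in controls, led by Csf3r, and 1 of 4 tested fell. Lymphocyte markers, led by Ighm, reached 172 to 433 CPM in phagocytosis libraries and 252 to 561 in controls, and 1 of 3 tested fell. Fn1 and Thy1 were not called. The monocyte gene that rose was Plac8 (17.9 CPM in phagocytosis libraries, 2.75 in controls) and the neuron gene Uchl1 (32.2 and 2.09). Those of the astrocyte list were Gfap (14.0 and 1.82) and Aldoc (12.1 and 2.45). They too are near 0 in controls, so the filter can partly fix these counts as well. The part of these markers in the lower homeostatic genes was not tested.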

How the data were processed

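RNA was measured in 24 Smart-Seq2 libraries. Per the file headers, the authors' deposited tables give each transcript's length, effective length, expected count of reads (not normalised) and TPM (divided by effective length and scaled to 1 sum per library); which quantifier and index made them is not given in the sources used here. Of 116945 transcripts, 116023 matched GENCODE vM21 (GRCm38); the other 922 held 0.274 to 0.379% of reads and were left out. The deposited expected counts were summed per gene and rounded. The table holds 0 transcripts of Nlgn4l, so the loss of its RNA in NL4-/- libraries could not be checked.

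Genes were tested with edgeR 4.0.16 in R 4.3.3 (quasi-likelihood F test, robust dispersions, TMM, minimum count 10, 9803 genes) in 1 fit of 8 group means with no covariate. P-values are two-sided and Benjamini-Hochberg adjusted over all genes tested, called under 0.05; edgeR's prior count for log2 fold changes was 0.125. The mean comparison averages the 4 sex and genotype differences. DESeq2 1.42.0, limma 3.58.1 on log2(TPM + 1), other filters and scalings, a replicate block and left-out libraries were alternatives. The fit was tested on simulated data. Counting error and intervals cover reads, not molecules, since amplified copies carry no identifiers.

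The members and all gene lists were chosen with earlier results of these data known. All members are named; of other homeostatic genes the 8 with the smallest adjusted p plus P2ry12, Csf1r and Trem2; of partners those called plus Ang, Cx3cl1, Selp and Tyrobp; of marker lists the most abundant member and those at 0; of genes alike, the 8 highest and 4 lowest r above a mean log2 CPM of 5. One gene that these rules take is not reported here. Mrc1, Pf4, Cbr2, Ms4a7, Plac8, Uchl1, Gfap, Aldoc and Cask were named after their values were seen.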

Additional observations from a re-analysis of the deposited data

How the results depend on the processing

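The count of members called in the mean state comparison, 5 by edgeR, was 6 by DESeq2, 8 with a minimum count of 30, 8 with an additive model of state, sex and genotype, 0 by limma on log2(TPM + 1), 3 with phagocytosis numbers 3 and 4 only, 9 with numbers 1 and 2 only, and 1 without the controls above 20% satellite-like reads. With 1 library left out at a time it ran from 2 (without WT female control 2) to 9 (without WT male phagocytosis 4). Within sex and genotype, where 0 of 36 passed, 2 passed with no filter on low counts and 13 with numbers 1 and 2 only, and 0 to 0 with 1 library left out. Genotype, sex and interaction tests gave 0 under every alternative run. Without the controls above 20% satellite-like reads, NL4-/- females, NL4-/- males and WT males each kept a single control. Settings by phagocytosis number divide the libraries along the split described above, so their counts are no separate support for it. Over all genes the 1332 calls became 1408 by DESeq2, 1369 with a minimum count of 30, 1432 with the additive model, 1246 by limma on log2(TPM + 1), 1775 with numbers 1 and 2 only, 885 with length-scaled counts, 766 with numbers 3 and 4 only, 423 without those controls, and 794 to 1503 with 1 library left out. Of the other homeostatic genes, 30 fell, against 0 by limma on TPM, 14 with numbers 3 and 4 only, 46 with numbers 1 and 2 only, 7 without those controls, and 21 to 39 with 1 library left out. Cx3cr1 changed sign by limma on log2(TPM + 1), at 0.037 (adjusted p = 0.938; -0.59 to 0.04 and 0.00112 to 0.938 over its alternatives), where the median of all genes was 0.33, so it lay below that median; the cause was not tested.

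Same-numbered phagocytosis libraries of different groups had deviations that correlated between -0.09 and 0.16, and 5 of 16 correlated best with their own number, so the labels' numbers were not taken to pair samples. With a replicate block, 9 of 9 members passed in the mean state comparison, where 1645 of all genes did, and 14 of 36 within sex and genotype. Controls carry numbers 1 and 2 only, so in the mean comparison the block rests on those numbers. Slc2a5 was at -1.69 with the block and -1.71 with numbers 1 and 2 only, and Selplg at -1.32 and -1.30. These are therefore not separate alternatives.

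Gpr34 rests on 12 to 266 reads a library, the fewest of the 9 genes.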

Other observations

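Read assignment within the members differed by gene. Cx3cr1, Tmem119, Selplg, Fcrls and Slc2a5 each had 1 transcript with most of the gene's reads, for Tmem119 99.9% in phagocytosis libraries and in controls. Olfml3 had 67.8% of its reads in phagocytosis libraries and 67.6% in controls on a transcript annotated as a retained intron, of 3981 bases, while its main protein-coding transcript had 32.2% in phagocytosis libraries and 32.4% in controls. Siglech was divided over 8 transcripts, of which ENSMUST00000060416 took 20.5% of reads in phagocytosis libraries and 30.02% in controls, and 0 to 44.9% in single libraries, while ENSMUST00000165045 took 18.6% in phagocytosis libraries and 11.4% in controls. These shares are the quantifier's estimates and carry no test.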
